A study of Mus musculus with 10 samples.

Results

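The 34 genes described here carry out the unfolded protein response and the integrated stress response. They were taken by name with earlier results of these data known, so a share above that of all genes is no independent result. All 34 were present among the 23337 gene symbols measured in each library. They comprise 5 stress sensors and eIF2α kinases, 6 transcription factors, 3 genes of eIF2α dephosphorylation and feedback, 3 metabolic effectors of ATF4, 10 ER chaperones and cochaperones, 3 protein disulfide isomerases and 4 genes of ER-associated degradation. RNA was sequenced from 10 plated samples of immortalised fibroblasts that derive from mouse embryos (MEFs), labelled as carrying intact Slfn2 (WT) or a knockout of it (KO). Cells were left untreated or received mouse interferon-β (IFN-β) at 5000 IU/ml for 6 h, which gave 3 WT untreated, 3 WT IFN-β, 2 KO untreated and 2 KO IFN-β libraries. The labels say only that cells were plated in duplicate or triplicate and name no separate clones or embryos, so p-values measure the spread between these samples, which may be technical, and genotype and cell line cannot be told apart.

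The endoplasmic reticulum (ER) folds secreted and membrane proteins. When unfolded protein accumulates there, the sensors IRE1α (Ern1), ATF6 and PERK (Eif2ak3) raise chaperones and degradation factors through XBP1 and ATF6, while PERK phosphorylates the translation factor eIF2α. The other eIF2α kinases respond to amino acid shortage (GCN2, Eif2ak4), haem shortage and mitochondrial stress (HRI, Eif2ak1) and double-stranded RNA (PKR, Eif2ak2). All of them slow general translation and favour translation of the transcription factor ATF4. Slfn2 has a known link to this system, since T cells of mice with a mutant Slfn2 show chronic ER stress. Counts per gene report mRNA level only, so neither Xbp1 splicing nor eIF2α phosphorylation was measured.

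Library totals ran from 13565815 to 16329729 reads, and 13658 to 14311 genes had a read. A floor of 3 reads equals 2.73 to 3.29 of the normalised reads used below (reads divided by the authors' size factor), and the lowest value of any of the 34 genes in any library was 94.9 normalised reads, for Dnajb9. All 34 therefore passed the low-count filter. Exons of 13 of the 34 overlap those of another gene model. No single other model shares more than 11.4% of a gene's exon length, and some genes overlap several models. The strand setting of the counting is not given in the sources used here. Slfn2 was at 18.7, 17.4 and 15.5 normalised reads in the WT untreated libraries and at 46.1 and 34.9 in the KO untreated libraries, which goes against the KO label. After treatment it was at 527, 449 and 573 in the WT IFN-β libraries and at 75.0 and 171 in the KO IFN-β libraries, which lie lower as labelled. Isg15, Ifit1 and Cxcl10, standard interferon-induced genes, were higher after treatment by 5.09 to 6.47 on the log2 scale in WT-labelled and by 6.39 to 8.87 in KO-labelled cells (adjusted p up to 0.00098). Untreated KO-labelled cells had less Ifit1 (-3.73, limma adjusted p = 0.012) and Cxcl10 (-3.68, adjusted p = 0.0013), with Isg15 at -0.92 (adjusted p = 0.32). Treated means in KO-labelled against WT-labelled cells were 18571 against 26584 for Ifit1 and 21088 against 49125 for Cxcl10. For Isg15 they were 7764 against 5948. Because of the Slfn2 values the genotypes are called WT-labelled and KO-labelled. Fibroblast markers summed to between 207041 and 469813 normalised reads per library and epithelial markers to at most 5.24. The 6 macrophage and leukocyte genes summed to 145 to 419, with Cd14 the highest at a mean of 189. Of these, Ptprc, Itgam and Lyz2 were at 3 reads or fewer in every library.

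In untreated WT-labelled cells the set spanned a wide range of level. On the scale of normalised reads per kilobase of exon, which allows genes to be compared, Calr (calreticulin, a lectin chaperone that binds calcium) had the highest mean level at 8897. It was followed by Hspa5 (BiP, the ER-resident Hsp70) at 5295, Hsp90b1 (GRP94, the ER-resident Hsp90) at 5010, and Pdia3 (ERp57, the disulfide isomerase that works with calreticulin and calnexin) at 4836. Atf4 came next at 3841, the highest of the regulators, followed by Canx (calnexin) at 3232. The lowest were Eif2ak4 at 101, Dnajb9 at 68.3, Atf3 at 67.1, Eif2ak3 at 63.1 and Ern1 at 37.6 normalised reads per kilobase, and the remaining 23 genes lay between 118 and 1839. Neighbours in this order had overlapping library values except for the step from Pdia3 to Atf4 and the step from Canx to Pdia6. The largest ratio between any 2 libraries within 1 gene was 7.60, for Trib3.

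**Figure D1:**
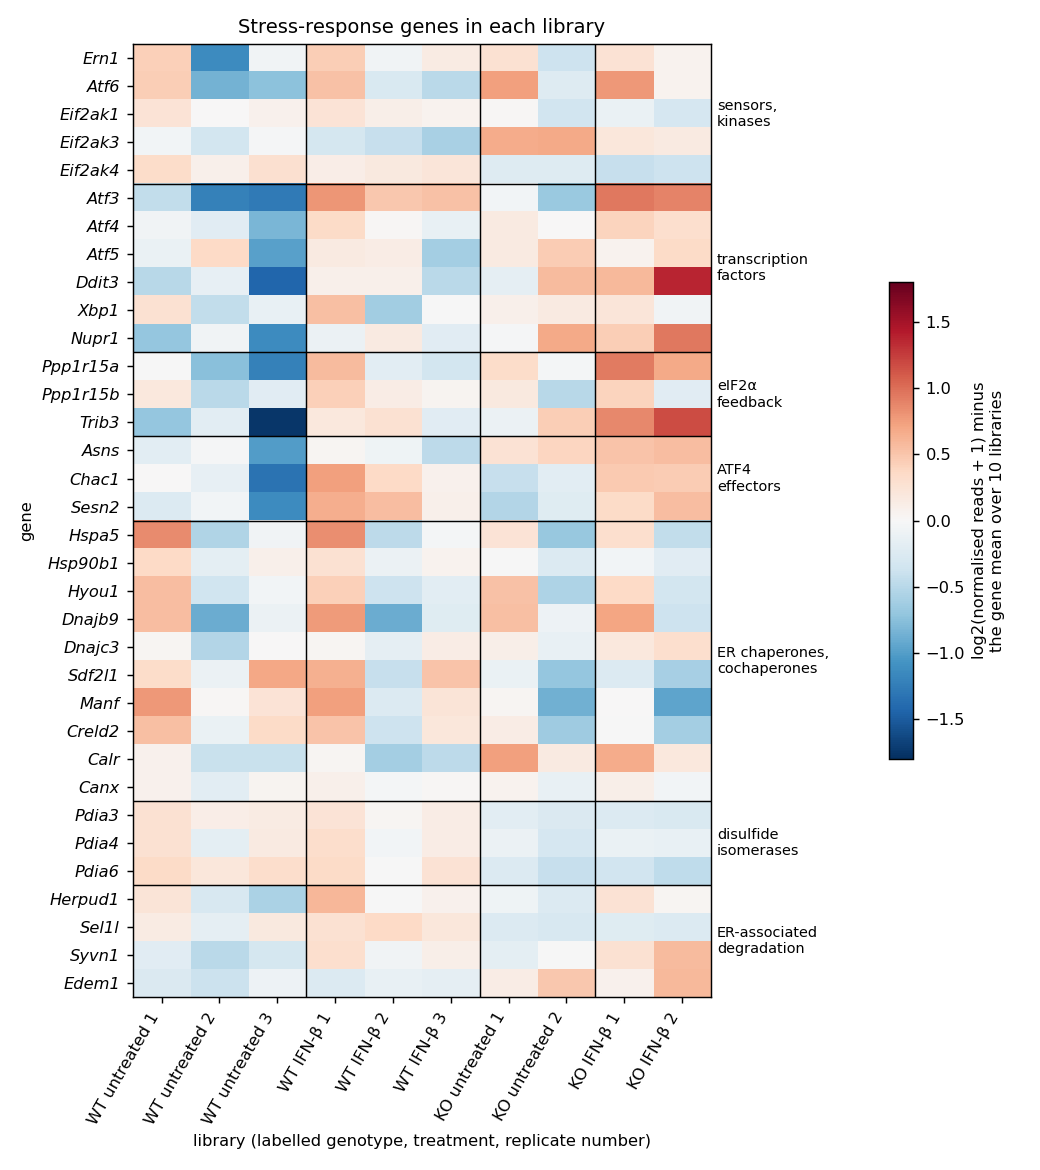
Level of each of the 34 genes (rows, grouped by role) in each of the 10 libraries (columns), as log2 of normalised reads plus 1 minus that gene's mean over the 10 libraries. Red is above and blue below the gene's mean. IFN-β libraries are mostly redder in the rows from Atf3 to Sesn2, except those of Atf5 and Xbp1. Libraries numbered 2 are bluer in the chaperone rows, and the WT untreated library numbered 3 is bluest in the ATF4-linked rows.

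After IFN-β, Atf3 and several genes downstream of ATF4 were higher, while the chaperones stayed near their untreated level. In WT-labelled cells, Atf3 (activating transcription factor 3, an immediate stress-induced repressor and activator) passed the test, with a 2.98-fold rise. With the replicate number as a block, 5 further genes rose: Atf4, Ppp1r15a, Trib3, Chac1 and Sesn2, by 1.35-fold to 1.95-fold. None of the 34 fell at the threshold in either limma fit, nor with edgeR or DESeq2, and 0 (1 with the block) had an unadjusted p under 0.05 in that direction, while of all genes 0.0% were lower, or 0.268% with the block. The test was limma's, across 12313 genes, with a Benjamini-Hochberg adjusted p under 0.05 as the threshold, and all adjusted p-values given here are of this kind unless another tool is named. Without the block 1 of 34 genes passed against 2.21% of all genes tested, and with the block 6 of 34 (17.6%) passed against 4.95%, all 6 of them higher, against 4.68% of all genes that were higher. Libraries of the same replicate number deviated together, as described under the replicate numbers, which is why both fits are given.

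Atf3 (GRCm38 chr1:191170296-191218039, minus strand) was at 203, 118 and 113 normalised reads in the WT untreated libraries and at 477, 384 and 397 in the WT IFN-β libraries. Every treated library lay above every untreated one, and the log2 fold change was 1.58 ± 0.27 (SE, adjusted p = 0.013), or 1.58 ± 0.16 with the block (adjusted p = 0.00054). In KO-labelled cells it was at 267 and 173 untreated and at 533 and 510 after IFN-β, again without overlap. There the log2 fold change was 1.27 ± 0.33 (adjusted p = 0.15), and it passed with the block (1.27 ± 0.20, adjusted p = 0.0081). Without the block the WT call was lost when any of 5 WT-labelled libraries was left out (all but the first untreated one), with adjusted p up to 0.071. With the block no single library decided the WT call, while the KO call was lost without the second library of either KO group, with adjusted p up to 0.12.

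Sesn2 (sestrin 2, a stress-induced inhibitor of mTORC1; chr4:132492032-132510501, minus strand) was at 619, 705 and 332 normalised reads in WT untreated libraries and at 1147, 1077 and 776 after IFN-β. In KO-labelled libraries it was at 506 and 627 untreated and at 931 and 1071 after IFN-β. Both genotypes separated fully by treatment. With the block the log2 fold change was 0.91 ± 0.13 in WT-labelled cells (adjusted p = 0.0034), a call that no single library decided. In KO-labelled cells it was 0.83 ± 0.16 with the block (adjusted p = 0.023), a call lost when any of the 4 KO-labelled libraries was left out (adjusted p up to 0.22). Without the block neither passed (adjusted p = 0.28 and 0.90).

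Chac1 (a glutathione-degrading enzyme and ATF4 target; chr2:119351229-119354381, plus strand) was at 920, 828 and 366 normalised reads in WT untreated libraries and at 1528, 1181 and 967 after IFN-β. Its KO-labelled values were 690 and 803 untreated and 1278 and 1258 treated. Trib3 (tribbles 3, a pseudokinase that is induced by ATF4 and CHOP and dampens their activity; chr2:152337422-152344032, minus strand) was at 1082, 1532 and 517 in WT untreated libraries and at 1989, 2118 and 1518 after IFN-β. Here the treated and untreated WT ranges of Trib3 met, because its second untreated library exceeded its treated library numbered 3, whereas those of Chac1 stayed apart. In KO-labelled cells Trib3 was at 1621 and 2386 untreated and at 3193 and 3932 treated. The WT log2 fold changes with the block were 0.88 ± 0.17 for Chac1 (adjusted p = 0.022) and 0.97 ± 0.18 for Trib3 (adjusted p = 0.016). Without the block they were the same size with adjusted p of 0.52 and 0.51, and in KO-labelled cells (0.77 ± 0.40 and 0.85 ± 0.44) neither gene passed in either fit.

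Ppp1r15a (GADD34, the stress-induced subunit that brings phosphatase 1 to eIF2α; chr7:45522916-45526268, minus strand) was at 820, 489 and 354 normalised reads in WT untreated libraries and at 1230, 726 and 660 after IFN-β. Its KO-labelled values were 1044 and 809 untreated and 1585 and 1329 treated. Atf4 itself (chr15:80255184-80257541, plus strand) was at 10887, 9828 and 6457 in WT untreated libraries and at 14373, 11480 and 10356 after IFN-β, and at 12756 and 11369 untreated and 15038 and 13982 treated in KO-labelled libraries. For both genes the WT groups overlapped across numbers, although each treated library exceeded the untreated library of its own number. With the block the WT log2 fold changes were 0.68 ± 0.13 for Ppp1r15a (adjusted p = 0.021) and 0.44 ± 0.10 for Atf4 (adjusted p = 0.043), and without it adjusted p was 0.93 for both. Of these block calls, that of Atf4 was the most fragile: it was lost on leaving out any of 9 libraries (adjusted p up to 0.32). Those of Ppp1r15a and Chac1 each depended on 4 WT-labelled libraries and were lost without any of them (highest adjusted p 0.18 and 0.13), and that of Trib3 without any of 3 (up to 0.070).

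**Figure D2:**
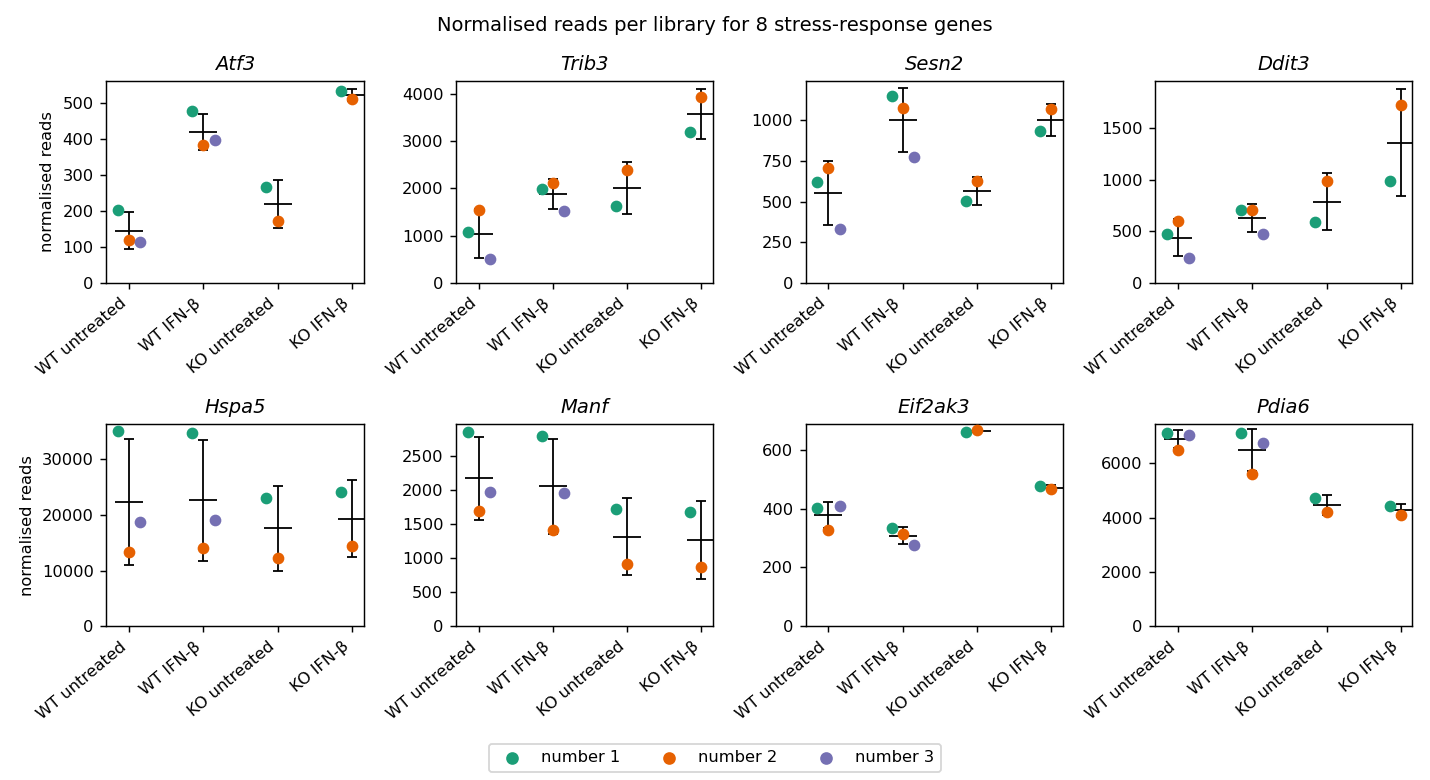
Normalised reads (linear axes from 0) of 8 genes in every library, coloured by replicate number, with the group mean (bar) and SD (whiskers) for 3 WT-labelled or 2 KO-labelled libraries. Atf3 and Sesn2 separate by treatment within each genotype, Hspa5 and Manf are highest in the library numbered 1 of each group, and Eif2ak3 and Pdia6 separate by labelled genotype.

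Direction within same-number pairs gave a fuller view of the set, because each treated library was set against the untreated library of its own genotype and number. In all 5 pairs, 13 of 34 genes (38.2%) were higher after IFN-β, against 14.4% of all genes tested. They were Atf6, Atf3, Atf4, Ddit3, Nupr1, Ppp1r15a, Ppp1r15b, Trib3, Chac1, Sesn2, Herpud1, Sel1l and Syvn1. Transcription factors gave 4 of them, eIF2α feedback 3 of its 3 genes, effectors 2 of 3 and the sensors 1. Another 3 of the 4 degradation genes were among them: Herpud1 (a ubiquitin-like membrane factor), Syvn1 (the HRD1 ligase) and Sel1l (the partner of HRD1). The pair differences of the 3 feedback genes ran from 0.23 to 1.55 on the log2 scale, with a median of 0.60, and those of the effectors Asns (asparagine synthetase), Chac1 and Sesn2 from -0.05 to 1.40, with a median of 0.65.

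Ddit3 (CHOP, the transcription factor tied to stress-induced cell death; chr10:127290774-127296288, plus strand) was at 470, 596 and 245 normalised reads in WT untreated libraries and at 709, 708 and 475 after IFN-β. In KO-labelled libraries it was at 590 and 986 untreated and at 991 and 1721 treated. It was higher in 5 of 5 pairs, yet the groups overlapped in WT-labelled cells and the KO-labelled groups only just stood apart. Its log2 differences of 0.60 ± 0.37 in WT-labelled and 0.77 ± 0.45 in KO-labelled cells did not pass in either fit.

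The 10 chaperones and cochaperones did not pass, and 0 of 10 had an unadjusted p under 0.05 in either genotype with limma (with or without the block), edgeR or DESeq2. Their 50 pair differences ran from -0.32 to 0.43 on the log2 scale, with a median of -0.01, and 27 of the 50 were below 0. Hspa5, a standard readout of ATF6 and XBP1 activity (chr2:34771970-34777547, plus strand), was at 35067, 13370 and 18742 normalised reads in WT untreated libraries and at 34785, 14042 and 19040 in the treated libraries with the same numbers. The values of like-numbered libraries nearly coincide, and those of unlike numbers do not. The 15 pair differences of the disulfide isomerases lay between -0.21 and 0.17, with a median of -0.03. In all 5 pairs, 3 genes were lower after IFN-β against 16.9% of all genes: Eif2ak3, Pdia3 and Manf (a secreted survival factor retained in the ER with BiP).

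**Figure D3:**
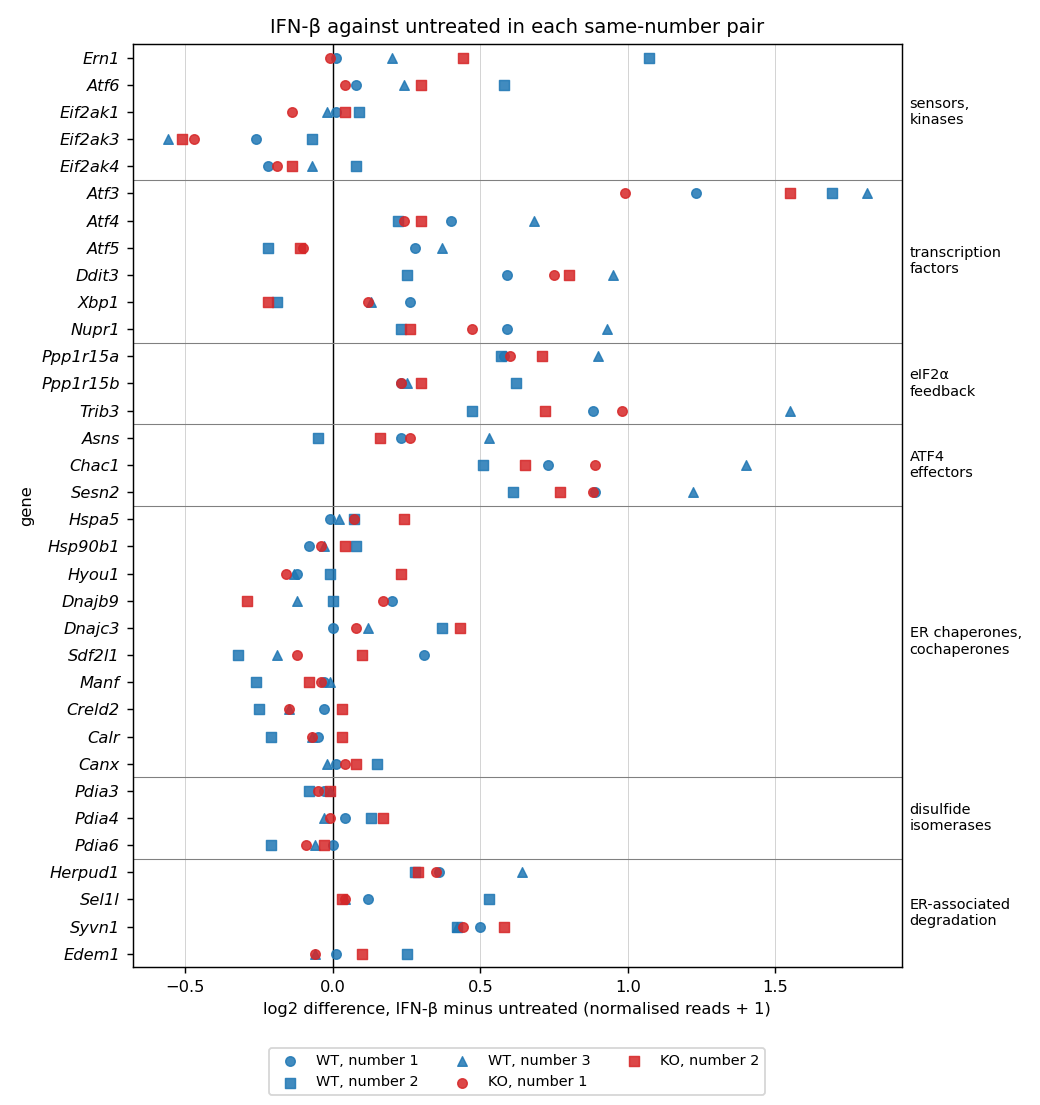
Difference on the log2 scale between the IFN-β and the untreated library of the same genotype and number (x axis) for each of the 34 genes (y axis), blue for WT-labelled and red for KO-labelled pairs, with marker shape giving the number. The points of Atf3, Trib3, Chac1, Sesn2, Ppp1r15a and Syvn1 all lie right of 0, those of most chaperones and disulfide isomerases straddle it, and those of Eif2ak3 lie left of it.

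In KO-labelled cells taken alone no gene of the set passed without the block, against 1.84% of all genes (4 of 34 had an unadjusted p under 0.05, and on the recovered reads edgeR called 0 and DESeq2 called 1). With the block 2 passed, Atf3 and Sesn2, against 3.48%. No overlap between treated and untreated KO-labelled libraries occurred for 12 genes that were higher (against 10.7% of all genes) and 2 that were lower, Eif2ak3 and Eif2ak4 (against 9.67%). In WT-labelled cells 5 genes were higher without overlap, Atf3, Chac1, Sesn2, Sel1l and Syvn1, against 7.48% of all genes. The share in KO-labelled cells comes from 2 libraries against 2 and the share in WT-labelled cells from 3 against 3, so the counts cannot be compared.

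Whether the response differed between genotypes was tested directly as an interaction. None of the 34 genes passed with limma, with or without the block, and none had an unadjusted p under 0.05. No gene of the 12313 (0.0%) passed with limma either, where 36 had an unadjusted p under 0.05, or 151 with the block. On the recovered reads edgeR called 0 genes and DESeq2 called 1, each with 39 genes at an unadjusted p under 0.05. The estimates for the 34 genes ran from -0.30 to 0.18 on the log2 scale with standard errors of 0.18 to 0.81, or 0.12 to 0.37 with the block. Interactions many times their SE also went uncalled by limma. Outside the set, Slfn2 had an interaction of -3.35 ± 0.47 with the block (limma, adjusted p = 0.40). Cxcl10 had one of 2.39 ± 0.46 in the same fit (adjusted p = 0.82). At this replication the lack of calls therefore cannot decide whether the 34 genes responded alike in both genotypes.

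The eIF2α kinase that responds to interferon stood outside the set. Eif2ak2 (PKR, itself an interferon-stimulated gene) was at 582, 565 and 689 normalised reads in WT untreated libraries and at 5903, 6436 and 5660 after IFN-β. In KO-labelled libraries it went from 481 and 891 to 7274 and 7617. The log2 fold changes were 3.30 ± 0.21 (adjusted p = 2.7e-05) and 3.50 ± 0.26 (adjusted p = 0.00011), and it was the gene that passed among 23 other sensors and genes of eIF2 function in both genotypes without the block. The kinases in the set did not follow it: Eif2ak1 differed by 0.03 ± 0.14, Eif2ak4 by -0.07 ± 0.13 and Eif2ak3 by -0.30 ± 0.15 in WT-labelled cells.

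Other ATF4 targets were examined from a list of amino acid transporters, serine and proline synthesis enzymes and stress factors, of which 27 were tested. Their median log2 difference with IFN-β was 0.33 in WT-labelled and 0.27 in KO-labelled cells, where the median of all genes was -0.03. None passed without the block in either genotype with limma, edgeR or DESeq2 (limma gave an unadjusted p under 0.05 for 5 in WT-labelled and 0 in KO-labelled cells). With the block 6 rose in WT-labelled and 0 in KO-labelled cells, where 8 had an unadjusted p under 0.05. Slc7a11 (the cystine importer) went from 604, 280 and 220 normalised reads to 796, 619 and 479 in WT-labelled cells (log2 fold change 0.89 ± 0.17 with the block, adjusted p = 0.022). Slc7a1 (a cationic amino acid transporter) changed by 0.71 ± 0.13 with the block (adjusted p = 0.018). Of 32 other ER folding and secretory genes 0 passed in either genotype or limma fit, nor with edgeR or DESeq2 (0 had an unadjusted p under 0.05 without the block). With the block 4 in WT-labelled and 3 in KO-labelled cells were under 0.05 unadjusted. Among 16 other degradation genes Rnf139 (TRC8, an ER ubiquitin ligase) alone passed, at 0.92 ± 0.13 in WT-labelled cells (adjusted p = 0.0049) and 1.24 ± 0.16 in KO-labelled cells (adjusted p = 0.0031).

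Promoter sequence was set beside these values, because members of the ATF4 branch moved together. The C/EBP-ATF response element, which ATF4 dimers bind, was searched as TGATGNAA on both strands in the 250 bases before the RefSeq start site (GRCm38.p6), for which 30 of the 34 genes had an entry (none was matched for Atf6, Hyou1, Manf and Ppp1r15b). It occurred in 5 of the 30 (16.7%) and in 3.53% of 27025 promoters of the same length. The windows of these 5 genes are printed 5′ to 3′ along the strand that carries the motif, with the fixed letters of the motif in capitals.
Atf3: cgcggacttggTGATGcAAgtgcgagaagg
Chac1: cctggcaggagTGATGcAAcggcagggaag
Asns: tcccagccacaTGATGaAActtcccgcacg
Herpud1: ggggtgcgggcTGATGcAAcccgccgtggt
Nupr1: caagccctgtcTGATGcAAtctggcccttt
They lie at chr1:191183425-191183454 (plus strand), chr2:119351038-119351067 (minus), chr6:7693214-7693243 (minus), chr8:94386306-94386335 (minus) and chr7:126625562-126625591 (plus), in the order printed. The motif itself sits 110 to 103 bases before the RefSeq start of Atf3 and of Nupr1. It sits 193 to 186 bases before that of Chac1, 23 to 16 before Asns and 112 to 105 before Herpud1. The GENCODE models of Atf3, Asns and Nupr1 start further upstream, so by those positions their sites lie inside the gene. For Nupr1, 250 of 250 searched bases overlap GENCODE exons. The Chac1 and Herpud1 sites lie before the gene by both. Atf3, Chac1, Herpud1 and Nupr1 were higher after IFN-β in 5 of 5 pairs, and Asns in 4 of 5. Trib3, Sesn2 and Ppp1r15a, which were also higher in every pair, have a promoter entry without these letters in the window searched. A match is a description of sequence and does not show binding.

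Genotype calls were no more frequent among the 34 genes than among all genes without the block, and more frequent with it. Each of the 3 disulfide isomerases was lower in the KO-labelled library in 4 of 4 same-number pairs, as were 27.5% of all genes tested. Untreated KO-labelled cells had more Eif2ak3 (1.76-fold) and less Pdia6 (0.649-fold), the only 2 of 34 that passed without the block, against 6.23% of all genes tested. After IFN-β the 2 that passed were Eif2ak4 (0.677-fold) and Pdia6 (0.661-fold), against 6.55%. With the block 13 of 34 (38.2%) passed in untreated cells, against 26.6% of all genes, and 14 of 34 (41.2%) in treated cells, against 26.0%. Of these block calls, 10 of 13 and 11 of 14 were lost when some single library was left out, and those of Calr, Manf and Pdia6 were kept under both treatments. The 2 lists shared 11 genes, 84.6% of the first and 78.6% of the second. Marker levels of other cell types also differed by labelled genotype: the neural list of 4 genes, most of it Nes and with Gfap at 3 reads or fewer throughout, summed to 2402 to 4286 normalised reads in WT-labelled and 1022 to 1386 in KO-labelled libraries. The list of 6 macrophage and leukocyte genes, most of it Cd14, summed to 258 to 419 and 145 to 204. Single markers went in both directions. Sox2, a neural and stem cell factor, was at 0 in all 6 WT-labelled libraries and at 103, 255, 94.0 and 129 normalised reads in the 4 KO-labelled ones, while Nes was lower in each of them. Of the 10 fibroblast markers, Dcn and Lum (matrix proteoglycans) passed as lower: Dcn was at 1567 to 2355 normalised reads in WT-labelled and 77.3 to 107 in KO-labelled libraries, and Lum at 15.4 to 47.4 and 0.942 to 3.65. Their part in the differences below was not tested.

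Eif2ak3 (PERK; chr6:70844515-70905245, plus strand) was at 402, 329 and 409 normalised reads in WT untreated and at 663 and 667 in KO untreated libraries. After IFN-β it was at 335, 313 and 276 in WT-labelled and at 477 and 467 in KO-labelled libraries. The genotypes did not overlap under either treatment, and the KO-labelled libraries were the higher ones. The log2 fold change in untreated cells was 0.81 ± 0.17 (adjusted p = 0.025), or 0.80 ± 0.15 with the block (adjusted p = 0.0055), and in treated cells it was 0.61 ± 0.15 with the block (adjusted p = 0.017) and did not pass without it (0.62 ± 0.17, adjusted p = 0.069). The untreated call without the block was lost on leaving out any of 4 libraries (adjusted p up to 0.14). The block call was lost without the second KO untreated library (adjusted p = 0.064), and the treated one without either KO IFN-β library (adjusted p up to 0.14).

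Eif2ak4 (GCN2; chr2:118388618-118475234, plus strand) moved the other way. It was at 802, 679 and 776 normalised reads in WT untreated and at 543 and 541 in KO untreated libraries, and at 689, 720 and 740 in WT IFN-β and 477 and 491 in KO IFN-β libraries. The genotypes again stood fully apart, with the KO-labelled libraries lower. The log2 fold change was -0.56 ± 0.14 after IFN-β (adjusted p = 0.049, lost without any of 9 libraries) and -0.47 ± 0.14 in untreated cells (adjusted p = 0.091). With the block both passed, at -0.54 ± 0.12 (adjusted p = 0.012) and -0.44 ± 0.12 (adjusted p = 0.024). Eif2ak1 differed by -0.41 to -0.23 on the log2 scale over the 4 same-number pairs, and passed after IFN-β with the block (-0.38 ± 0.10, adjusted p = 0.025, lost without any of 6 libraries).

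Pdia6 (P5, an isomerase that also binds BiP; chr12:17266545-17284770, plus strand) was at 7119, 6510 and 7038 normalised reads in WT untreated and at 4739 and 4211 in KO untreated libraries. With IFN-β it was at 7122, 5622 and 6757 in WT-labelled and at 4446 and 4110 in KO-labelled libraries. All KO-labelled values lay below all WT-labelled values. The log2 fold changes were -0.62 ± 0.14 (adjusted p = 0.036) and -0.60 ± 0.14 (adjusted p = 0.042), each lost without any of 8 libraries. With the block they were -0.60 ± 0.09 (adjusted p = 0.0028) and -0.57 ± 0.09 (adjusted p = 0.0034), and no single library decided them. Pdia3 differed by -0.42 ± 0.09 and -0.41 ± 0.09 with the block (adjusted p = 0.011 and 0.013). Pdia4 was lower in 4 of 4 pairs and passed in neither treatment.

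Manf (chr9:106838312-106891979, minus strand) was at 2852, 1684 and 1968 normalised reads in WT untreated and at 1711 and 912 in KO untreated libraries, and at 2788, 1404 and 1954 in WT IFN-β and 1668 and 862 in KO IFN-β libraries. The groups overlap as a whole, but within each number the KO-labelled library was lower, with differences of -0.88 to -0.70 on the log2 scale. Manf therefore passed only with the block, at -0.79 ± 0.10 in untreated cells (adjusted p = 0.0011) and -0.74 ± 0.10 in treated cells (adjusted p = 0.0015). Those calls were kept without any 1 library. Part of its exon length (166 and 146 of 3524 bases) lies opposite an antisense gene and Dcaf1. Creld2, a cochaperone induced with Manf in ER stress, differed with the block by -0.46 ± 0.11 (adjusted p = 0.016) and -0.38 ± 0.11 (adjusted p = 0.034), calls lost without any of 2 and of 7 libraries (adjusted p up to 0.13 and 0.27). Sdf2l1, a BiP-complex component, was lower in 4 of 4 pairs and did not pass (block adjusted p = 0.051 and 0.073).

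Calr (chr8:84841850-84846934, minus strand) was the chaperone that passed as higher. It was at 31626, 22643 and 22601 normalised reads in WT untreated and at 49922 and 33554 in KO untreated libraries, and at 30602, 19618 and 21463 in WT IFN-β and 47654 and 34255 in KO IFN-β libraries. Every KO-labelled library exceeded every WT-labelled library. With the block the log2 fold changes were 0.62 ± 0.09 (adjusted p = 0.0026) and 0.71 ± 0.09 (adjusted p = 0.0014), kept without any 1 library, and without the block adjusted p was 0.19 and 0.14. Canx, its membrane-bound homologue, was at 13479 to 16424 normalised reads in all 10 libraries and differed by 0.00 ± 0.09 and 0.01 ± 0.09 between genotypes with the block. Dnajc3 (p58IPK, a BiP cochaperone) was higher in the KO-labelled library in 4 of 4 pairs, by 0.08 to 0.46 on the log2 scale, and did not pass.

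Genes next to Calr were higher in KO-labelled cells too. Within 200 kb of Calr 18 other protein-coding genes were tested, and 18 of 18 were higher in untreated KO-labelled cells. Over the 16 of them above the floor in WT-labelled cells, the log2 fold change with the block ran from 0.64 to 1.87. With the block 18 passed in untreated and 17 in treated cells, beside 26.6% and 26.0% of all genes, and without it 15 and 14, beside 6.23% and 6.55%. Nacc1 went from a mean of 4347 to 11156 normalised reads, and Lyl1 (a haematopoietic transcription factor) from 1.74, under the floor of 3 reads, to 285. Calr's own change with the block was below that of all 18 in untreated cells and of 17 in treated cells. The part of its location in the Calr difference was not tested. Dnajb1 (Hsp40), a cytosolic heat-shock gene also on chromosome 8, was higher by 1.25 ± 0.13 in untreated cells (adjusted p = 0.00079).

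**Figure D4:**
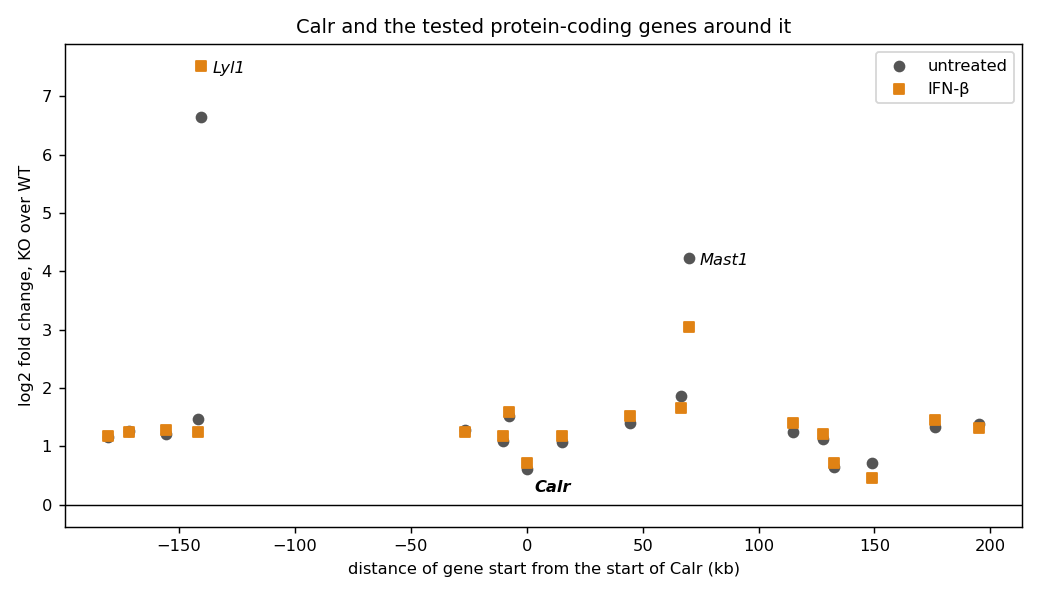
Log2 fold change of KO-labelled over WT-labelled cells, with the replicate block, for Calr and the 18 tested protein-coding genes within 200 kb of it, against the distance of each gene's lower coordinate from that of Calr in kb. Every point lies above 0 under both treatments, and Calr lies at the low edge of the group at 0.62 (untreated) and 0.71 (IFN-β).

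Several genes downstream of ATF4 were higher in KO-labelled cells, and others were not. Nupr1 (a small stress-induced chromatin protein) was at 352, 544 and 259 normalised reads in WT untreated and at 562 and 918 in KO untreated libraries (log2 fold change with the block 0.80 ± 0.16, adjusted p = 0.0094). Asns was at 5099, 5701 and 2892 in WT untreated and at 6930 and 7618 in KO untreated libraries (0.50 ± 0.13 with the block, adjusted p = 0.022). Both separated by genotype in untreated cells, as did Trib3 (0.76 ± 0.21 with the block, adjusted p = 0.029). Ppp1r15a passed with the block under both treatments (0.59 ± 0.16 and 0.57 ± 0.16, adjusted p = 0.025 and 0.030), and Ddit3 after IFN-β (0.79 ± 0.21, adjusted p = 0.026). None of these genes passed for genotype without the block. Their block calls are among those described above as lost when some single library was left out. By contrast Chac1 and Sesn2 were lower in the KO-labelled library in 3 and 4 of 4 pairs, with differences of -0.42 to 0.09 and -0.30 to -0.01, and neither passed. These comparisons use the same untreated WT-labelled libraries as the IFN-β comparisons above, so the 2 sets of values are not independent.

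Of the remaining genes, Edem1 (a lectin that passes misfolded glycoproteins to degradation) was higher in KO-labelled cells with the block, by 0.60 ± 0.15 and 0.56 ± 0.15 (adjusted p = 0.020 and 0.026), calls lost without any of 2 and of 5 libraries (adjusted p up to 0.16 and 0.25). Sel1l was lower after IFN-β, at 1369 and 1339 normalised reads against 1917, 2049 and 1841 (-0.50 ± 0.13 with the block, adjusted p = 0.021, lost without any of 4 libraries). Atf6 was higher in untreated cells at 0.44 ± 0.14 with the block (adjusted p = 0.048), a call lost without any of 9 libraries. Herpud1, Hyou1 (GRP170) and Ppp1r15b (CReP, the constitutive partner of phosphatase 1) passed in neither fit, nor did Hspa5, whose block values were -0.37 ± 0.15 and -0.24 ± 0.15. Over the 4 same-number pairs, 12 genes were higher in the KO-labelled library each time and 12 were lower each time, against 28.2% and 27.5% of all genes.

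**Figure D5:**
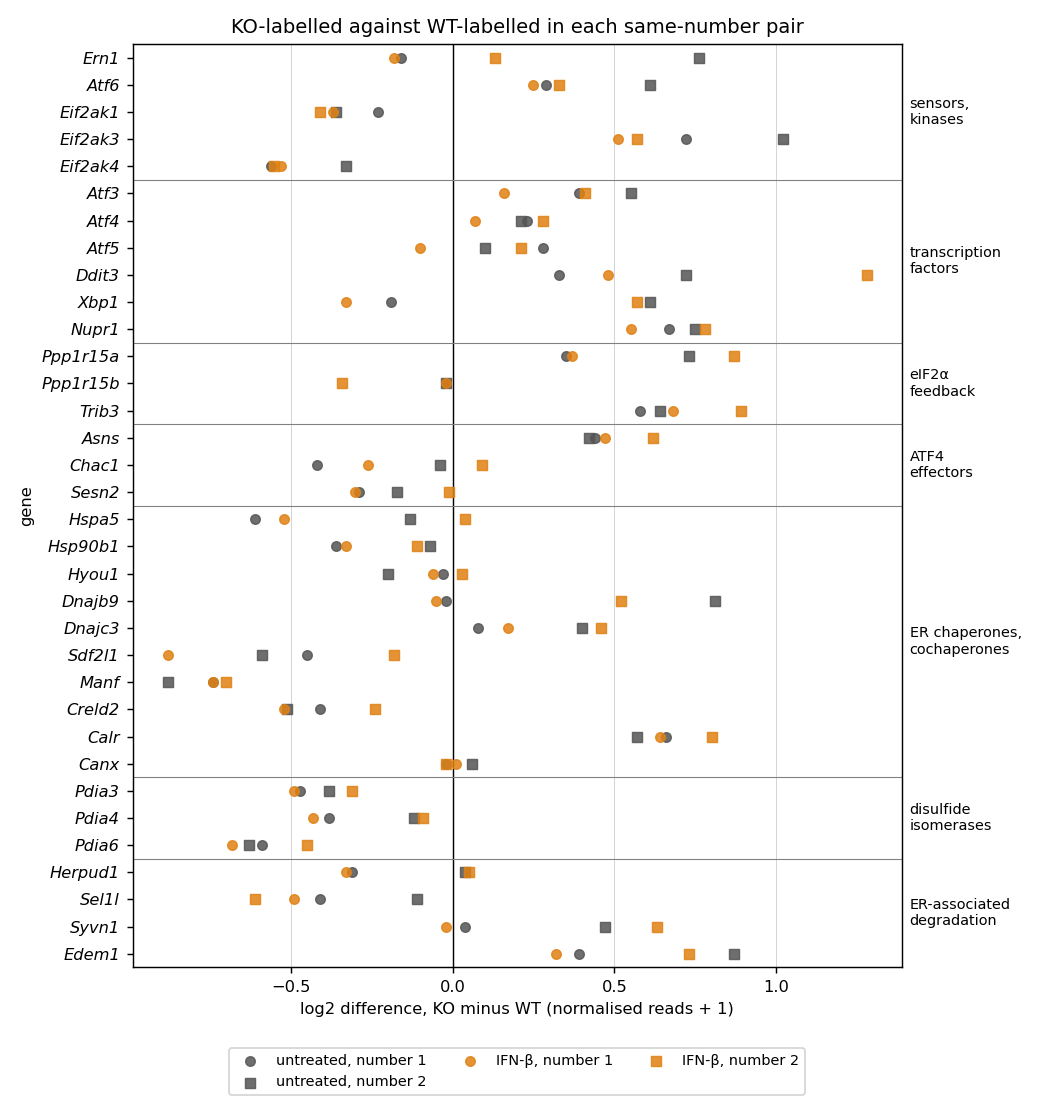
Difference on the log2 scale between the KO-labelled and the WT-labelled library of the same treatment and number (x axis) for each of the 34 genes (y axis), grey for untreated and orange for IFN-β pairs. Eif2ak3, Nupr1, Trib3, Asns, Calr and Edem1 lie right of 0 in 4 of 4 pairs, and Eif2ak4, Manf, Creld2, Sel1l and the 3 disulfide isomerases lie left of it.

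Outside the set, the genotype comparison called few pathway genes without the block. Gpt2 (alanine aminotransferase 2), an ATF4 target, was higher in untreated KO-labelled cells by 1.29 ± 0.22 (adjusted p = 0.0083), the only 1 of 27 targets that passed. It lies at chr8:85492576-85527560, 646 kb from Calr, and the part of that location was not tested. Fkbp14 (an ER prolyl isomerase) and Sec62 (a translocon subunit) were higher by 1.41 ± 0.21 (adjusted p = 0.0055) and 0.92 ± 0.13 (adjusted p = 0.0044), the only 2 of 32 other folding and secretory genes. Of all genes 6.23% passed in that comparison. With the block 9 of the 27 targets were higher and 2 lower, and 9 of the 32 folding genes were higher and 0 lower, beside 26.6% of all genes in either direction.

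Chaperone levels followed the replicate number. In libraries numbered 2, 21 of the 34 genes differed from those numbered 1, in a fit with group means and number together, against 48.6% of all genes. Of the 21, 19 were lower, against 23.3% of all genes, and 2 higher, against 25.3%. The lower ones included 9 of the 10 chaperones and cochaperones. The labels do not say what a number marks. After each group's mean was taken off, same-number libraries from different groups had correlations across genes of 0.48 to 0.87, and pairs with unlike numbers reached 0.32 at most. The contrast with unlike numbers is partly built in. Taking off the mean makes the 2 libraries of a KO group mirror images and pushes unlike-number values down in groups of 3 too. Between the WT-labelled groups, same-number correlations were 0.61 to 0.79 and unlike-number ones -0.54 to 0.01.

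Hspa5 was at 35067, 34785, 23052 and 24184 normalised reads in the 4 libraries numbered 1 (WT untreated, WT IFN-β, KO untreated, KO IFN-β) and at 13370, 14042, 12205 and 14427 in those numbered 2. No library numbered 2 reached any numbered 1. The log2 difference was -1.09 ± 0.11 (adjusted p = 0.00027). Dnajb9 (ERdj4, a BiP cochaperone) had the largest difference, -1.21 ± 0.17 (adjusted p = 0.0010), from 262, 302, 259 and 291 to 94.9, 95.0, 167 and 137 normalised reads. Atf6 differed by -0.95 ± 0.10, Manf by -0.90 ± 0.07, Hyou1 by -0.87 ± 0.08 and Creld2 by -0.74 ± 0.08, with adjusted p from 0.00012 to 0.00032. Calr (-0.54 ± 0.07, adjusted p = 0.00063) and Hsp90b1 (-0.33 ± 0.08, adjusted p = 0.010) moved in the same direction by less, and Dnajc3 did not pass. None of these 8 calls was lost on leaving out any 1 library.

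Genes linked to ATF4 went in both directions. Ddit3 (0.47 ± 0.15, adjusted p = 0.034) and Nupr1 (0.52 ± 0.12, adjusted p = 0.0082) were higher in libraries numbered 2. The Ddit3 call was lost without any of 5 libraries (adjusted p up to 0.13), and that of Nupr1 was kept throughout. Trib3, Asns, Chac1, Sesn2, Atf4 and Atf5 passed in neither direction. Ppp1r15a and Ppp1r15b differed by -0.53 ± 0.11 and -0.56 ± 0.09 (adjusted p = 0.0060 and 0.0014). The disulfide isomerases were lower in 12 of 12 pair differences, between -0.46 and -0.02, and those of Pdia4 and Pdia6 passed narrowly (adjusted p = 0.033 and 0.049, each lost without any of 8 or 9 libraries). Outside the set, 15 of 32 other ER folding genes and 12 of 19 cytosolic heat-shock genes were also lower in libraries numbered 2, with 1 and 2 higher.

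Number 3 exists for WT-labelled cells only, and there both ER genes and genes linked to ATF4 were lower. Against number 1, 14 of 34 genes were lower and 0 higher (limma; 17 lower and 0 higher at an unadjusted p under 0.05, and 0 higher with edgeR or DESeq2), against 24.6% of all genes in either direction, 12.6% lower and 11.9% higher. They included 3 of 3 feedback genes (Ppp1r15a by -0.94 ± 0.15, Trib3 by -0.69 ± 0.20, Ppp1r15b by -0.42 ± 0.12), 3 of 3 effectors (Chac1 by -0.90 ± 0.20, Sesn2 by -0.68 ± 0.15, Asns by -0.65 ± 0.13), Atf5 (-0.80 ± 0.13) and Atf4 (-0.59 ± 0.11), with adjusted p from 0.0050 to 0.040. The largest difference of the 34 was that of Atf6 (-1.05, adjusted p = 0.0023). Hspa5 (-0.76), Hyou1 (-0.62), Herpud1 (-0.56), Manf (-0.54) and Calr (-0.49) passed too, with adjusted p from 0.0058 to 0.020, and Atf3, Ddit3 and Nupr1 did not pass. Of 27 other ATF4 targets 18 were lower, with the largest differences for Stc2 (stanniocalcin 2) at -1.62, Slc7a3 (a cationic amino acid transporter) at -1.39 and Cth (cystathionase) at -1.32 (adjusted p = 0.0031, 0.0048 and 0.00080). Each of the 14 genes was lower in number 3 than in number 1 in both WT groups. The log2 differences were -1.33 to -0.39 in untreated and -1.02 to -0.37 in IFN-β libraries. Number 3 rests on 2 libraries, so leaving 1 out leaves a single library for the term. Calls lost in that way cannot show which library carries the difference. The third WT untreated library held the lowest value of the 10 for Atf3, Atf4, Atf5, Ddit3, Nupr1, Ppp1r15a, Trib3, Asns, Chac1, Sesn2 and Herpud1. It is one of the 3 untreated libraries behind every WT comparison above.

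The chaperone promoters are set beside the number comparison because 9 of 10 of those genes moved together in it. The ER stress response element, bound by ATF6 with NF-Y, was searched as CCAAT and CCACG with 9 bases of any kind between them, on both strands of the same 250 bases. It was found in 8 of the 30 genes with an entry (26.7%) and in 0.122% of all promoters: Calr, Canx, Creld2, Dnajc3, Hsp90b1, Hspa5, Pdia6 and Syvn1, with 2 sites in Hsp90b1. Dnajb9, which had the largest number 2 difference, and Sdf2l1 (-0.61 ± 0.13) have an entry without these letters. Dnajc3, which has them, was the chaperone that did not pass. The Dnajb9 window lies wholly within the GENCODE exons of that gene (250 of 250 bases), so sequence before its GENCODE start was not searched. The Hspa5 site also lies inside its GENCODE model, which starts at chr2:34771970. The related element, ATTGG and CCACG with 1 base of any kind between them, was found in Herpud1 (1 of 30, 3.33%) and in 0.0333% of all promoters, and the XBP1-type element TGACGTGG in 0 of 30 and 0.503%. Windows of 6 genes that differ in response are printed 5′ to 3′ along the strand with the motif, fixed letters in capitals.
Hspa5: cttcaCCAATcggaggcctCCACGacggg
Creld2: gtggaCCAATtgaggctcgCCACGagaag
Calr: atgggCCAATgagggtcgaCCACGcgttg
Pdia6: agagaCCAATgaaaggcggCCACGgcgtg
Canx: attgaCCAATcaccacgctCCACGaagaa
Herpud1: cgggcgctgATTGGgCCACGttggacact
They lie at chr2:34772020-34772048 (plus strand), chr15:88819515-88819543 (minus), chr8:84847070-84847098 (plus), chr12:17266486-17266514 (plus), chr11:50325795-50325823 (minus) and chr8:94386368-94386396 (plus), in the order printed (GRCm38.p6, RefSeq). With the same element, Hspa5 differed by -1.09 on the log2 scale in libraries numbered 2 and Canx by -0.19 ± 0.07 (adjusted p = 0.047). Between genotypes Calr was higher, Creld2 and Pdia6 lower and Canx within 0.01 of 0. A match is again a description only. The genes were taken by name for this pathway, so a higher share than in all promoters is no independent result.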

How the data were processed

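RNA sequencing of 10 mouse fibroblast libraries was analysed. The authors deposited 1 table of scaled signal per library, gene read counts divided by a size factor, as the values show: 100% of values were whole multiples of 1 read within 0.001 reads, and the reads so recovered gave the depth. Per the submitters' processing notes, cutadapt 1.13, STAR 2.5.2a, HTSeq and DESeq2 were used with mm10, and per the series' design text the libraries were stranded. Annotation, strand setting and filters are not given in the sources used here.

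Because this unit is not a raw count, limma-trend (limma 3.58.1, R 4.3.3) was fitted to log2 of the value plus a pseudocount of 1, with 4 group means over 10 libraries and all 12313 genes that passed filterByExpr (edgeR 4.0.16, minimum count 10), and was tested on simulated data. P-values are two-sided, adjusted by Benjamini-Hochberg over all genes tested. Fold changes on this scale understate changes of low genes. A second fit had the replicate number as a block: the numbers pair the samples by the data (lowest same-number correlation 0.48, limit 0.1), not by the labels. Number comparisons had number as a term beside the groups. Alternatives were edgeR and DESeq2 1.42.0 on recovered reads, TMM, pseudocounts of 0.5 and 5, no filter, and each library left out. The floor of 3 reads covers counting error only.

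The 34 genes and the other lists were chosen with earlier results of these data known. All 34 are named. Of other lists, up to 3 genes that passed per comparison with the largest change and a mean of at least 20 normalised reads are named, with Slfn2, Isg15, Ifit1 and Cxcl10 as checks of label and treatment, and the chromosome 8 neighbours of Calr were chosen after their values were seen. Gene positions are from GENCODE (GRCm38) and promoter sequences from RefSeq (GRCm38.p6). One neighbour's values are not reported here.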

Additional observations from a re-analysis of the deposited data

How the results depend on the processing

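The numbers of the 34 genes that passed depended most on the replicate block and on single libraries. With the replicate block, which follows the pairing by number, the count went from 1 to 6 for IFN-β in WT-labelled cells, from 0 to 2 in KO-labelled cells, from 2 to 13 for genotype in untreated cells and from 2 to 14 in treated cells, and the interaction stayed at 0. DESeq2 gave 1, 4 and 5 for IFN-β in KO-labelled cells and for genotype in untreated and treated cells, and no low-count filter gave 1 and 0 for the last 2; the cause was not tested. Leaving out each library in turn gave 0 to 1 for IFN-β in WT-labelled cells (2 to 8 with the block), 0 in KO-labelled cells (0 to 3), 0 to 2 for genotype in untreated cells (3 to 16), 0 to 4 in treated cells (3 to 16), 14 to 19 for number 2 and 0 to 15 for number 3. Where 1 library of a KO group or 1 library numbered 3 remained, it was assumed to vary like the other libraries. Under edgeR, TMM and both pseudocounts each of these counts stayed within 1.5 times its value. For number 2, WT-labelled libraries alone gave 15. The block fits with a library left out and with edgeR were chosen after seeing the data; edgeR with the block gave 7, 2, 13 and 14. Over all alternatives, 824 values of single genes kept their direction and side of the threshold, 241 lost the call and 0 reversed. All 34 genes lay far above the floor of 3 reads in every library, and groups of 2 or 3 libraries limit the precision.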

Other observations

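The cytosolic heat-shock genes, the counterpart of the ER chaperones outside the organelle, gave the following values. Of 19 tested none passed for IFN-β with limma in either genotype (1 had an unadjusted p under 0.05 in each, and edgeR and DESeq2 called 0). In untreated KO-labelled cells Hspb8 (a small heat-shock protein) was at 969 and 1135 normalised reads against 285, 311 and 296 in WT-labelled cells, a log2 fold change of 1.81 ± 0.22 (adjusted p = 0.0020). Dnajb1, whose gene lies on chromosome 8 as does Calr, was at 3623 and 3040 against 1345, 1422 and 1412. Both separated fully by genotype, whereas the median of the 19 genes was -0.19 on the log2 scale.

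Gpt2, Fkbp14 and Sec62 kept their separation after IFN-β: Gpt2 was at 8453 and 9303 normalised reads in KO-labelled against 4163, 3732 and 3279 in WT-labelled libraries, Fkbp14 at 430 and 541 against 264, 220 and 224, and Sec62 at 3433 and 3443 against 1970, 2010 and 1730.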
